A study of Mus musculus with 4 samples.

Results

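The light chain of an antibody is made either from the kappa locus, with the single constant gene Igkc, or from the lambda locus, with the constant genes Iglc1, Iglc2 and Iglc3 and the variable genes Iglv1, Iglv2 and Iglv3. These 7 genes were taken by their symbols from the 31053 genes of the matrices. The rule uses no measured value, but it was set with earlier results of these data known. The genes were followed through the B cell stages, plasma cells and other cells of mouse bone marrow. The libraries came from bone marrow mononuclear cells of C57BL/6 mice, 2 of the genotype TLR9-/- (disrupted Tlr9) and 2 wild type (WT). The mice had no further treatment in the labels, their age was not given in the sources used here, and each library was 1 mouse. Transcripts were read from the 5′ end and counted as unique molecular identifiers (UMIs), each marking 1 captured molecule. Libraries are named by genotype and number, and 4 values in a row are in the order TLR9-/- 1, TLR9-/- 2, WT 1 and WT 2.

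During B cell development, a pro-B cell first joins its heavy-chain segments, and the heavy chain pairs with the surrogate light chain made from Igll1 and Vpreb1. After a burst of division, the resting small pre-B cell uses the RAG recombinase to join a variable and a J segment of the kappa locus, and usually turns to the lambda locus where kappa joining fails. The immature B cell carries the finished receptor on its surface, the mature B cell adds IgD, and the plasma cell secretes antibody. In mice most B cells carry kappa chains. The constant genes can also be transcribed from unjoined loci, so a constant-gene UMI alone does not show that a light chain was made.

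Igkc lies on chromosome 6 of GRCm38 (chr6:70726435-70726966, plus strand) and the lambda genes on the minus strand of chromosome 16. Iglc1 lies at chr16:19061618-19062071, Iglc3 at chr16:19065230-19065681 and Iglc2 at chr16:19198396-19200351. Iglv1 lies at chr16:19085017-19085500, Iglv3 at chr16:19241207-19241690 and Iglv2 at chr16:19260401-19260859. In the GENCODE annotation each constant gene has 1 coding exon and each variable gene has 2, and a further Iglc2 transcript has an upstream exon at chr16:19200198-19200351. The coding sequences of Iglc2 and Iglc3 were alike at 96.2% of aligned bases and differed at 12. Iglc1 was alike with Iglc2 at 73.4% and with Iglc3 at 74.2%, and Igkc with the lambda constant genes at 51.4% to 53.9%. The following stretches of the first coding bases are shown because the separation of Iglc2 from Iglc3, and of Iglv1 from Iglv2, rests on few bases. They are from the GENCODE transcripts of GRCm38, 5′ to 3′ on the gene's strand. In Iglc2 (chr16:19198733-19198852, from coding base 2), capitals mark the 7 bases that differ from Iglc3.
Iglc2: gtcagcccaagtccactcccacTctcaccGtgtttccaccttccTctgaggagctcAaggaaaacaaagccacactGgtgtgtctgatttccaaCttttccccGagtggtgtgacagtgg
In Iglc3 (chr16:19065562-19065681, from coding base 1), capitals mark the same 7 positions.
Iglc3: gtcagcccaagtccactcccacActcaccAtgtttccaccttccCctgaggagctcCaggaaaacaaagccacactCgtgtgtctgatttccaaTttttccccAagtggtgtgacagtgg
In Iglc1 (chr16:19061952-19062071, from coding base 1), capitals mark the 28 bases that differ from Iglc2.
Iglc1: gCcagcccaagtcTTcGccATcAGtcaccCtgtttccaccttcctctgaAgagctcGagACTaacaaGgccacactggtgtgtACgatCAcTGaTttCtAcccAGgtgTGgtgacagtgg
In Iglv1 (chr16:19085415-19085460 joined to chr16:19085248-19085321), capitals mark the 6 bases of the first 120 that differ from Iglv2.
Iglv1: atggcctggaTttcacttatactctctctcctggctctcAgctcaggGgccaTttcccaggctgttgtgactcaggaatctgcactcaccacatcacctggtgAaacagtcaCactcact
In Iglv2 (chr16:19260799-19260844 joined to chr16:19260632-19260705), capitals mark the same 6 positions.
Iglv2: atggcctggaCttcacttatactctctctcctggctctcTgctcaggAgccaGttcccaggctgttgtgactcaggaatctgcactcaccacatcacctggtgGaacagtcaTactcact
Over the whole coding sequence, Iglv1 and Iglv2 were alike at 96.9% of aligned bases, and Iglv1 and Iglv3 at 53.6%. No window of 90 bases was shared exactly between 2 of the constant genes, whereas 15 of 302 such windows of Iglv1 were shared with Iglv2. No window of 150 bases, the length of a read, was shared exactly between any of the 7 genes. How reads of the near-identical pairs Iglc2 and Iglc3, and Iglv1 and Iglv2, were split was not tested, so the levels within each pair are uncertain.

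The cells kept numbered 10781, 8918, 10573 and 8895, with between 31210188 and 63958243 UMIs per library. Of the 39167 cells, 14832 (37.9%) were gated as B lineage and 128 (0.327%) as plasma cells, by marker genes that include no light-chain gene. Between 349 and 440 cells of a library had a barcode that also occurred in another library. Tlr9, the disrupted gene, had 41, 48, 120 and 97 UMIs (0.817, 0.75, 3.84 and 2.34 CPM, that is, per 1000000 UMIs counted), so its RNA was lower but not at 0 in the TLR9-/- libraries. B lineage cells were split into 2622 precursors with surrogate light chain RNA (pro-B and large pre-B), 1631 cycling pre-B cells, 4121 small pre-B cells, 2102 immature B cells with Ms4a1 and 4356 mature B cells with Ighd or Fcer2a. Of the check genes that no gate used, some followed these names and others did not. Dntt was at 204 to 344 CPM of the stage in precursors and at most 34.2 in any later stage. Rag1 was at 239 to 355 CPM in small pre-B cells, and Cr2 was highest in mature B cells. Il7r, a pro-B marker, was at 169 to 246 CPM in precursors but 341 to 569 in small pre-B cells. Rag2, a small pre-B marker, was at 38.9 to 74.0 CPM there and 47.0 to 70.2 in cycling pre-B cells. Klf2, a mature marker, was at 434 to 776 CPM in immature and 403 to 669 in mature B cells. Ly6d, an immature and mature marker, was at 4459 to 5122 CPM in small pre-B and 3185 to 4298 in mature B cells. Kit, a pro-B marker, was at most at 7.47 CPM in any stage. The mature gate still held Rag1 RNA at 31.0 to 57.9 CPM.

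Igkc, the kappa constant gene, was found at every stage, and its level separated precursors, the later B cells and plasma cells. In precursors it was at 320, 361, 335 and 350 CPM, and in cycling pre-B cells at 1648, 1863, 1589 and 1484 CPM. Small pre-B cells had 2076, 1912, 1994 and 2330 CPM, immature B cells 2415, 2451, 2429 and 3373 CPM, and mature B cells 2143, 2000, 2070 and 2647 CPM. Plasma cells had 46088, 36393, 46322 and 70978 CPM. The 4 libraries of cycling pre-B cells all lay above those of precursors, and those of plasma cells above all others. Mature B cells overlapped both small pre-B and immature B cells. Small pre-B cells lay above cycling pre-B cells and below immature B cells, without overlap. In edgeR's quasi-likelihood test, Igkc rose by 2.20 on the log2 scale between precursors and cycling pre-B cells (adjusted p = 5.69e-12, standard error 0.11). It rose from small pre-B to immature B cells by 0.46 (adjusted p = 0.0025) and from mature B to plasma cells by 5.69 (standard error 0.13, adjusted p = 3.6e-19). The changes from cycling to small pre-B cells (0.21, adjusted p = 0.118) and from immature to mature B cells (-0.21, 95% interval -0.44 to 0.01, adjusted p = 0.347) did not pass the threshold of 0.05. At least 1 Igkc UMI was seen in 39.5% to 46.6% of precursors, 89.9% to 99.1% of cycling pre-B cells, 74.6% to 79.4% of small pre-B cells and 83.5% to 91.0% of mature B cells. Neutrophils, which are not of the B lineage, had it in 5.43% to 12.7% of cells at median depths of 2184 to 3306.5 UMIs per cell, against 1077 to 1701.5 in mature B cells.

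The lambda constant genes appeared 1 stage later than Igkc. Iglc2 was at 19.6, 5.64, 20.7 and 8.10 CPM in cycling pre-B cells and at 947, 1022, 626 and 671 CPM in small pre-B cells. Iglc3 was at 20.5, 30.1, 34.4 and 12.1 CPM in cycling and at 656, 693, 683 and 717 CPM in small pre-B cells. Iglc1 was at 2.67, 0, 12.2 and 8.77 CPM and then 218, 332, 202 and 342 CPM. All small pre-B libraries lay above all cycling pre-B libraries for each of the 3 genes. The 0 in TLR9-/- 2 stood for 117 cells and allowed a share of up to 2.56% of cells with a UMI, or 5.64 CPM. The log2 fold changes from cycling to small pre-B cells were 5.08 for Iglc1 (adjusted p = 1.99e-09), 5.72 for Iglc2 (adjusted p = 1.94e-12) and 4.74 for Iglc3 (adjusted p = 1.44e-12). None of the 3 passed the test from precursors to cycling pre-B cells, where their values were -0.02, -0.50 and 0.29. With stricter stage gates, however, Iglc1 (1.21, adjusted p = 0.0362) and Iglc2 (1.02, adjusted p = 0.0094) rose in that step. From small pre-B to immature B cells they rose again, Iglc1 by 1.84, Iglc2 by 1.46 and Iglc3 by 1.14 (adjusted p = 0.000306, 8.54e-05 and 0.000176).

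In mature B cells the lambda constant genes together were above Igkc in every library, at 3824, 4193, 3168 and 2890 CPM. The annotated transcripts used for the 4 constant genes are of similar length (452 to 532 bases), but they do not include a variable gene. A variable and a constant gene compete for the UMI of a joined molecule. These lengths therefore do not make the counts of Igkc and of the lambda constant genes comparable. The higher lambda level holds for the constant genes only. With the kappa variable (Igkv) and lambda variable (Iglv) UMIs added, lambda genes took 37.4%, 35.6%, 35.1% and 32.1% of the light-chain UMIs of mature B cells. Iglc2 was at 2115, 2236, 1615 and 1337 CPM, Iglc3 at 1180, 1518, 1150 and 1116 CPM and Iglc1 at 529, 438, 403 and 437 CPM. The order Iglc2, Iglc3, Iglc1 held in every library of mature B cells, with no overlap between Iglc1 and the others. At least 1 UMI of a lambda constant gene was seen in 78.1% to 93.4% of mature B cells, against 4.15% to 8.41% of neutrophils and 0.735% to 1.72% of T cells. Iglc4, a further lambda constant segment, was at most at 8.96 CPM in any stage and library. None of the 7 genes was called from immature to mature B cells, where 3.17% of all 8824 genes tested were. The smallest adjusted p there was that of Iglc1, which was at 911, 1057, 772 and 800 CPM in immature B cells, above all mature B cell libraries (log2 fold change -0.92, edgeR adjusted p = 0.157).

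The lambda variable genes followed the constant genes. Iglv1, the most used mouse lambda variable gene, was at 32.9, 11.3, 30.7 and 6.07 CPM in cycling pre-B cells and 961, 1357, 752 and 813 CPM in small pre-B cells. It stayed between 572 and 2044 CPM in immature and mature B cells. Iglv2 went from 2.67, 0, 0 and 0 CPM to 325, 430, 199 and 333 CPM, and the 117, 742 and 413 cells without it allowed shares of up to 2.56%, 0.404% and 0.726%. Iglv3 went from 3.56, 1.88, 15.4 and 4.05 CPM to 142, 192, 87.7 and 80.3 CPM. The log2 fold changes were 5.46 for Iglv1 (adjusted p = 1.34e-07), 9.21 for Iglv2 (adjusted p = 0.000138) and 3.75 for Iglv3 (adjusted p = 1.05e-07). That of Iglv2 depends on the prior count because 3 of its 4 cycling values were 0. Iglv3 was the only variable gene that edgeR called from precursors to cycling pre-B cells (2.13, adjusted p = 0.0279). It was also the only one called from small pre-B to immature B cells (0.72, adjusted p = 0.0463). The latter call was lost without the library term (0.75, edgeR adjusted p = 0.18). Without a call in that step, Iglv1 was at 1595 to 2044 CPM in TLR9-/- and 1191 to 1275 CPM in WT immature B cells, above small pre-B cells.

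Of the 7 genes, 2 were called from precursors to cycling pre-B cells, 6 from cycling to small pre-B cells, 5 from small pre-B to immature B cells, 0 from immature to mature B cells and 6 from mature B to plasma cells, with the 7 counted at each step. All called changes were rises on the TMM-scaled values of the fit. In CPM, Iglc2 of plasma cells overlapped that of mature B cells. The shares of all tested genes called in these steps were 37%, 48%, 26.2%, 3.17% and 30%. The 2 of 7 from precursors to cycling pre-B cells were no larger a share than that of all genes. Some of the gates use surrogate light chain, cell cycle or Ms4a1 RNA, and the plasma gate uses Jchain and secretory genes, but none uses a light-chain gene.

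**Figure D1:**
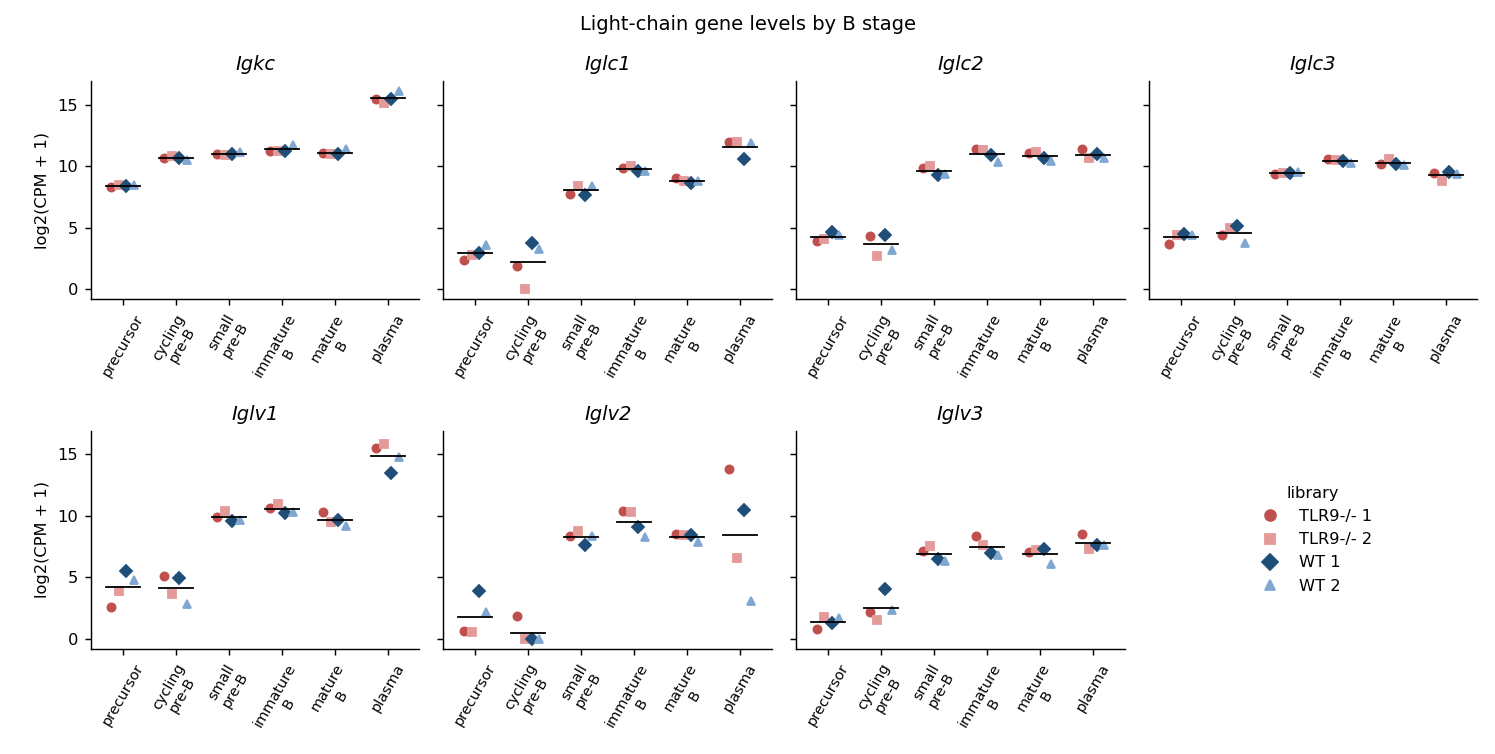
Level of each of the 7 genes on a log2(CPM + 1) scale by B stage, with 1 point per library. Igkc was already high in cycling pre-B cells, the lambda genes rose in small pre-B cells, and Igkc, Iglc1 and Iglv1 were highest in plasma cells.

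The ratio of variable to constant UMIs was different for kappa and lambda. Counting all 160 Igkv genes, the Igkv to Igkc ratio was 0.481, 0.538, 0.797 and 0.441 in precursors and 0.286, 0.149, 0.281 and 0.106 in cycling pre-B cells. It was 2.64, 2.60, 2.40 and 1.47 in small pre-B cells, 4.49, 4.58, 4.18 and 2.37 in immature B cells and 3.39, 3.88, 3.01 and 2.01 in mature B cells. Igkc in cycling pre-B cells was thus counted with few Igkv UMIs beside it, and from small pre-B cells on Igkv UMIs outnumbered those of Igkc in every library. The ratio of the 3 Iglv genes to the 3 Iglc genes was 0.688 to 0.967 in small pre-B cells, 0.464 to 0.698 in immature B cells and 0.286 to 0.47 in mature B cells. Lambda constant UMIs outnumbered lambda variable UMIs in all 4 libraries of these 3 stages. Plasma cells had 4.70, 7.06, 5.62 and 2.92 Igkv UMIs per Igkc UMI, and 3.04 to 9.34 Iglv UMIs per Iglc UMI.

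**Figure D2:**
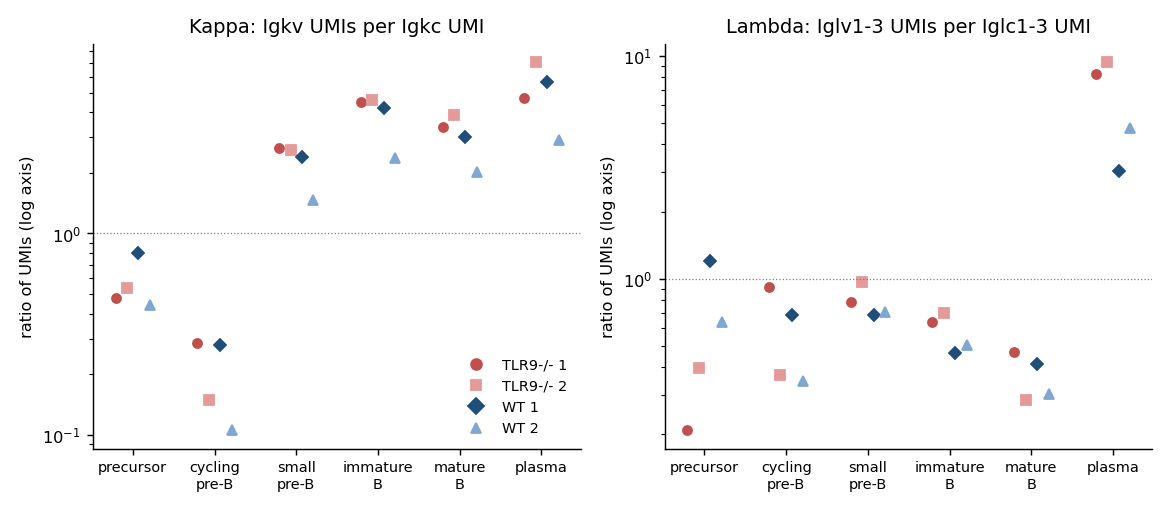
Ratio of variable to constant UMIs, on a log axis, for the kappa genes (Igkv to Igkc) and the lambda genes (Iglv1 to Iglv3 over Iglc1 to Iglc3) by stage, with 1 point per library. The kappa ratio was above 1 from small pre-B cells on in all libraries, whereas the lambda ratio was below 1 in small pre-B, immature and mature B cells and above 1 in plasma cells.

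The lambda part of the light-chain RNA therefore depended on which genes were counted. Of the constant UMIs, Iglc1, Iglc2 and Iglc3 together took 1.88% to 4.06% in cycling pre-B cells, 42.6% to 51.7% in small pre-B cells, 49.8% to 68.0% in immature B cells and 52.2% to 67.7% in mature B cells. Of the variable UMIs, the 3 Iglv genes took 17.9% to 28.5%, 15.5% to 24.0% and 13.4% to 19.8% in small pre-B, immature and mature B cells. In plasma cells the lambda part was 7.93% to 14.5% of constant and 4.73% to 21.8% of variable UMIs.

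The same held for single cells. Among cells with at least 5 constant UMIs, those with at least 50% of them on lambda genes made up 51.9%, 52.3%, 53.4% and 44.4% of small pre-B cells. They made up 78.8%, 73.4%, 69.5% and 50.2% of immature and 76.0%, 83.7%, 74.9% and 55.9% of mature B cells. The cells with at least 5 constant UMIs were 351, 220, 457 and 478 of the 1019, 407, 1689 and 1006 small pre-B cells. In mature B cells they were 501, 1031, 752 and 1119 of 693, 1150, 1141 and 1372, a larger part of the stage. The share was higher in mature B than in small pre-B cells in 4 of 4 libraries, by 22.2 percentage points on average (SD 8.25, n = 4, exact sign-flip permutation test, two-sided, p = 0.13, the smallest 4 pairs can give). With variable genes alone, which was added after seeing the data, the share was 14.0%, 17.6%, 13.1% and 20.9% in small pre-B and 13.04%, 9.85%, 11.3% and 10.3% in mature B cells, lower in mature B cells in 4 of 4 libraries by 5.30 points on average (same exact test, p = 0.13). With at least 3 or at least 10 constant UMIs per cell instead of 5, the mean difference was 24.6 or 9.65 points. With the constant genes and a limit of 80% instead of 50%, it was -0.447 points (same exact test, p = 1). The direction thus depended on the limit as well as on the genes counted, and no setting reached the threshold. In plasma cells 7.69%, 9.09%, 3.03% and 5% of cells were mostly lambda by their constant genes.

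To see the constant genes in cells whose variable gene was known, cells with at least 3 Igkv UMIs and no Iglv UMI were compared with cells that had at least 3 Iglv UMIs and more Iglv than Igkv UMIs. This grouping was also chosen after seeing the data. Among mature B cells there were 412, 819, 664 and 831 Igkv cells and 62, 95, 82 and 97 Iglv cells. Igkc was at 4.13 ± 0.95 UMIs per cell in Igkv cells and 1.45 ± 0.48 in Iglv cells (SD over 4 libraries), lower in Iglv cells in 4 of 4 libraries. It was detected in 93.1% of Igkv cells and in 47.2% of Iglv cells. The lambda constant genes did not follow the variable gene in this way. At least 1 of Iglc1, Iglc2 and Iglc3 was detected in 93.7% of Igkv cells and 97.8% of Iglv cells, and their summed UMIs per cell were 6.84 ± 1.35 and 7.63 ± 0.74. That difference was 0.793 UMIs (SD 0.72), higher in Iglv cells in 3 of 4 libraries (exact sign-flip permutation test, p = 0.25, adjusted p = 0.292 over 21 comparisons).

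The 3 lambda constant genes differed from each other in these cells. Iglc1 was at 1.71 ± 0.28 UMIs per mature Iglv cell and 0.809 ± 0.12 per Igkv cell, and Iglc2 at 4.20 ± 0.68 and 3.52 ± 0.83, each higher in Iglv cells in 4 of 4 libraries. Iglc3 went the other way, at 1.72 ± 0.25 in Iglv cells and 2.51 ± 0.53 in Igkv cells, lower in Iglv cells in 4 of 4. In small pre-B cells the sum of the 3 genes was 5.86 ± 1.15 UMIs per Iglv cell and 2.37 ± 0.52 per Igkv cell, and at least 1 UMI was seen in 96.5% and 59.2% of these cells. Iglc3 alone was at 1.13 ± 0.38 and 0.98 ± 0.20 UMIs, higher in Iglv cells in 3 of 4 libraries (exact sign-flip permutation test, p = 0.625). Small pre-B cells with no variable UMI at all had a lambda constant UMI in 39.1%, 51.9%, 22.7% and 39.4% of cells. With 4 libraries, every difference that held in 4 of 4 had an exact sign-flip p of 0.13, the smallest possible, and an adjusted p of 0.154, so none passed the threshold.

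**Figure D3:**
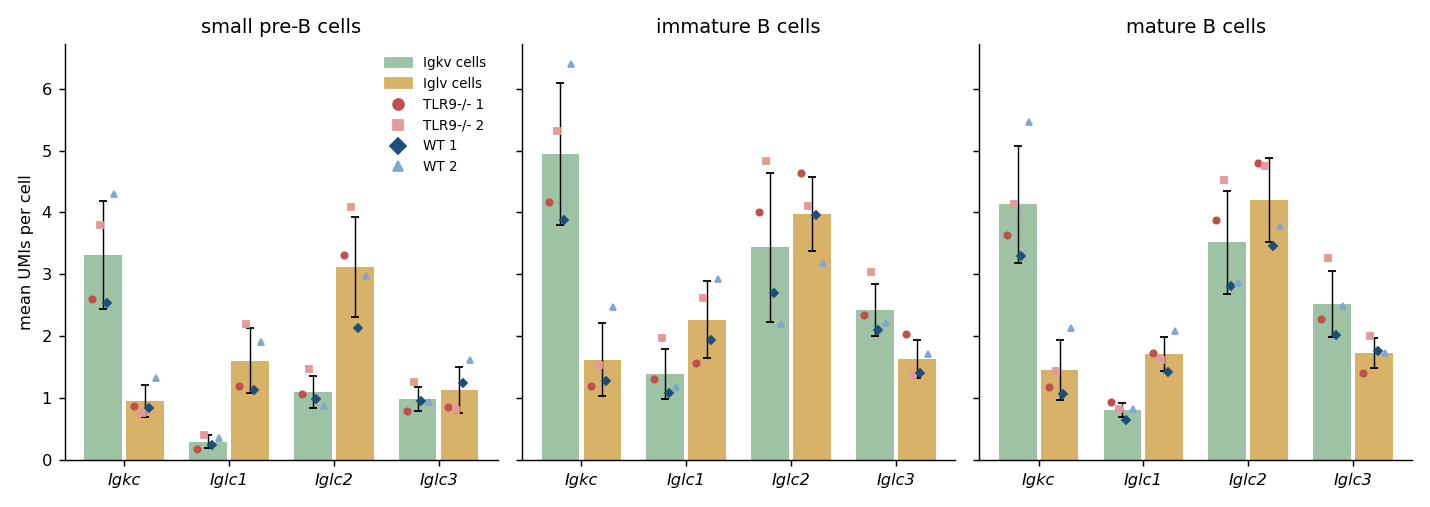
Mean UMIs per cell of Igkc, Iglc1, Iglc2 and Iglc3 in small pre-B, immature and mature B cells with Igkv UMIs and with Iglv UMIs. Bars give the mean of 4 libraries and error bars the SD. Igkc was higher in Igkv cells, whereas Iglc2 and Iglc3 were high in both groups of immature and mature B cells.

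The lambda constant genes were then compared by the variable gene of the cell, in Iglv cells as defined above with at least 80% of their Iglv UMIs on 1 gene. Of the 128 plasma cells, 8 were such cells with Iglv1, and in 8 of 8 Iglc1 was the highest lambda constant gene, with 95.4% of their 3643 lambda constant UMIs. In the 1 such plasma cell with Iglv2, Iglc2 held 92.4% of 384. Among 310 such immature and mature B cells with Iglv1, Iglc1 held 28.2%, Iglc2 54.5% and Iglc3 17.3% of the lambda constant UMIs. Among 110 such cells with Iglv2 the shares were 17.9%, 50.3% and 31.7%, and among 31 with Iglv3 they were 14.9%, 48.2% and 36.9%. In B cells, too, Iglc1 took a larger share in Iglv1 than in Iglv2 cells, and Iglc3 a smaller one, but Iglc2 led in both. Over the 4 libraries Iglc1 ranged from 20.3% to 38.2% in Iglv1 cells and from 11.9% to 22.5% in Iglv2 cells. These ranges overlapped. Within each library, however, the Iglc1 share was larger in Iglv1 cells (20.3%, 25.5%, 24.5% and 38.2% against 14.8%, 22.5%, 11.9% and 19.3%). Iglc3 ranged from 15.8% to 19.1% and from 25.3% to 41.3%, without overlap. The pooled shares above count cells over all libraries, and the differences were not tested.

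Plasma cells held much of the light-chain RNA of a library in few cells. They were 53, 22, 33 and 20 cells, or 0.492%, 0.247%, 0.312% and 0.225% of a library, and had 66.3%, 55.9%, 42.0% and 49.1% of its Igkc UMIs. Light-chain genes, with Igkv included, took 33.0%, 35.7%, 32.4% and 31.3% of their UMIs. In edgeR's fit, which scales the sums by TMM, Iglc1 rose from mature B to plasma cells by 4.08 on the log2 scale (adjusted p = 8.56e-09). In the same fit Iglc2 rose by 1.35 (adjusted p = 0.000131), whereas the value of Iglc3 was 0.25 (95% interval -0.17 to 0.67, adjusted p = 0.392). Iglc1 was at 3954, 4061, 1509 and 3801 CPM in plasma cells, Iglc2 at 2667, 1662, 2003 and 1638 CPM and Iglc3 at 697, 438, 727 and 671 CPM. Iglc1 and Iglc2 overlapped among plasma cell libraries, and Iglc3 was the lowest of the 3 in each. In CPM, which has no TMM scaling, Iglc2 of plasma cells overlapped that of mature B cells. Iglc3 of plasma cells lay below the 1116 to 1518 CPM of mature B cells. The rise of Iglc2 was thus seen in the scaled fit and not in CPM. In the edgeR fit Iglv1 rose by 6.65 (adjusted p = 1.36e-08), Iglv2 by 3.70 (adjusted p = 0.0241) and Iglv3 by 2.09 (adjusted p = 3.29e-06). The lambda values of plasma cells rest on few cells: of those with at least 5 constant UMIs, the cells with mostly lambda ones were 4 of 52, 2 of 22, 1 of 33 and 1 of 20, and the highest single cell held 26.4%, 54.5%, 81.5% and 83.1% of the Iglv1 UMIs. For Iglv2, 1 cell of TLR9-/- 1 held 96.4% of 6874 UMIs, and the 4 libraries ranged from 7.46 to 14170 CPM.

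The genotypes were compared within each stage, 2 libraries against 2, to ask whether loss of Tlr9 went with a difference in light-chain RNA. Of the members tested in each stage, 2 differences were called: Iglv1 was lower in TLR9-/- precursors and Iglv2 was higher in TLR9-/- immature B cells. Among all genes, 0.692% were called in precursors, 0.169% in cycling pre-B cells, 0.43% in small pre-B cells, 0.19% in immature B cells, 0.253% in mature B cells and 0% in plasma cells. Iglv1 was at 4.997, 14.0, 46.0 and 27.0 CPM in precursors, with the WT libraries above the TLR9-/- ones (log2 fold change -2.10, standard error 0.38, edgeR adjusted p = 0.0213). This rests on 19, 29, 158 and 123 UMIs, of which a single cell held 15.8%, 72.4%, 41.8% and 20.3%. The call was lost without TLR9-/- 1 (-1.43, adjusted p = 0.127), without WT 1 (-1.67, adjusted p = 0.143), with gates on thinned cells (-1.51, adjusted p = 0.504) and with stricter stage gates (-1.80, adjusted p = 0.0711). Iglv2 was at 1334, 1306, 543 and 306 CPM in immature B cells (1.61, standard error 0.29, edgeR adjusted p = 0.0479), and was detected in 8.84%, 7.38%, 3.95% and 3.80% of them. Its call was lost with another scaling of library sizes (1.60, adjusted p = 0.0537), with gates on thinned cells (1.26, adjusted p = 0.398) and without the limit on mitochondrial UMIs (1.62, adjusted p = 0.0879).

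Igkc gave no call in any B stage. Its log2 fold changes between TLR9-/- and WT were -0.04 in precursors (95% interval -0.39 to 0.32), 0.17 in cycling pre-B cells (-0.22 to 0.56), -0.17 in small pre-B cells (-0.60 to 0.26), -0.26 in immature B cells (-0.73 to 0.22) and -0.18 in mature B cells (-0.70 to 0.35). Iglc2 had log2 fold changes of 0.55, 0.69 and 0.56 in small pre-B, immature and mature B cells, stages of the same 4 mice. None of these passed the test (edgeR adjusted p = 0.654, 0.711 and 0.661). The means of Iglc1 and Iglc3 were also higher in TLR9-/- immature cells (984 against 786 and 1510 against 1295 CPM) and in TLR9-/- mature B cells. In small pre-B cells they were 275 against 272 and 675 against 700 CPM. In immature B cells Iglc2 was at 2660, 2560, 1881 and 1307 CPM. The libraries of a genotype were not close for the light-chain balance, since WT 2 had the lowest share of mostly lambda cells among immature and mature B cells and WT 1 lay nearer to the TLR9-/- libraries. The mean difference in that share was 16.3 points in immature and 14.5 points in mature B cells (exact permutation test, two-sided, p = 0.33 for each, the smallest 2 against 2 can give). With variable genes alone, it was 4.82 and 0.664 points. In plasma cells no gene of 2119 was called by edgeR, 98 had an unadjusted p under 0.05, and DESeq2 called 14. The intervals there were wide, as for Igkc (-0.41, 95% interval -3.65 to 2.84).

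Outside the B lineage, Igkc UMIs were found in every large class. Neutrophils had 38.9, 45.1, 127 and 103 CPM, monocytes and macrophages 10.2, 10.0, 16.8 and 24.2 CPM, and erythroid cells 8.64, 8.86, 28.2 and 21.9 CPM. The WT libraries lay above the TLR9-/- libraries in all 3 classes. In neutrophils the difference passed the test (log2 fold change -1.36, standard error 0.19, edgeR adjusted p = 0.021), in a fit where 0.458% of genes were called. It did not pass in monocytes and macrophages (-1.001, adjusted p = 0.407, with 0.23% of genes called) or in erythroid cells (-1.65, adjusted p = 0.19, with 0.136% of genes called). The erythroid difference did pass with DESeq2 (-1.66, adjusted p = 0.0114), without the filter on low counts (-1.64, adjusted p = 1.62e-06), with the library number as a replicate block (-1.60, adjusted p = 1.68e-07) and without WT 2 (-1.93, adjusted p = 0.00122). The UMIs of the 8 B lineage marker genes moved with Igkc: neutrophils had 243, 235, 733 and 497 CPM of them, with the defining genes Cd79a and Cd79b among the 8, and a B lineage UMI was seen in 8.94%, 9.02%, 18.0% and 21.1% of neutrophils. In neutrophils with no B lineage UMI, Igkc was at 6.29, 7.94, 5.65 and 6.23 CPM, and the difference had no call and the opposite sign (0.32, adjusted p = 0.949). This restriction was added after seeing the data. With the gates on cells thinned to 1000 UMIs the value was -0.07 (adjusted p = 0.973), and with a gate of 6 UMIs and 5 times any other list, also added later, it was -1.07 (adjusted p = 0.0368). Igkc was thus different between the genotypes in neutrophils as gated, and had no call among the neutrophils without a B lineage UMI. At 5.65 to 7.94 CPM the lack of a call does not show that a difference was absent. Without a B lineage UMI, monocytes and macrophages had Igkc at 4.52, 1.98, 5.75 and 10.5 CPM. Such erythroid cells had 4.84, 3.03, 10.1 and 3.77 CPM. B lineage cells were 3230 of 10781, 2223 of 8918, 5164 of 10573 and 4215 of 8895 cells kept, a smaller part in the TLR9-/- libraries. Whether B lineage RNA in the neutrophil gate gave the difference was not tested.

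**Figure D4:**
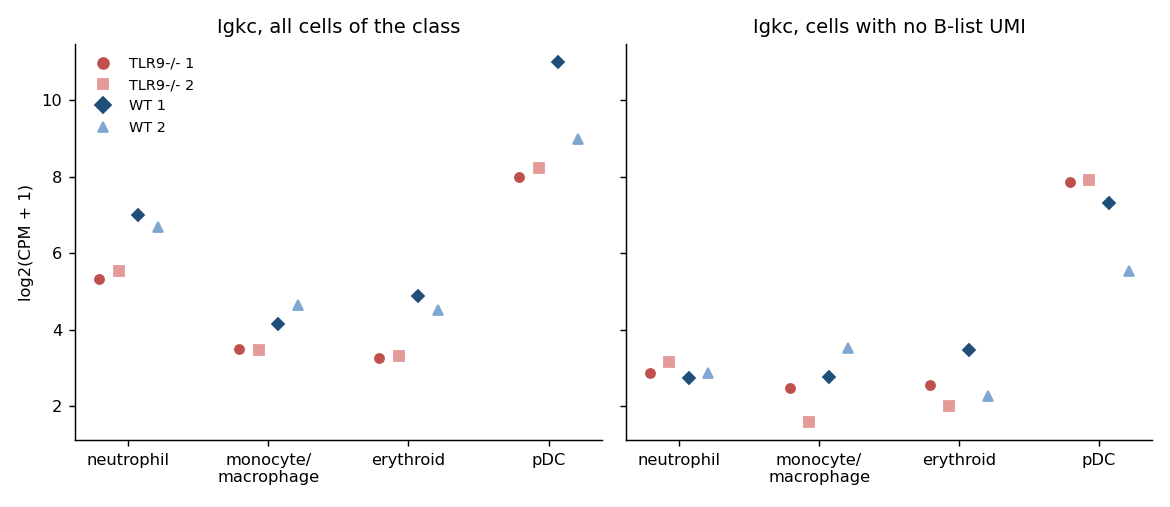
Igkc on a log2(CPM + 1) scale in 4 classes outside the B lineage, over all cells of the class and over the cells with no UMI of the 8 B lineage genes, with 1 point per library. Neutrophils of the WT libraries stood above those of the TLR9-/- libraries only over all cells, whereas monocytes and macrophages kept that order in both panels.

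The mix of the 3 lambda constant genes differed between cell classes. In small pre-B, immature and mature B cells, Iglc2 took 38.8% to 55.3% and Iglc3 28.9% to 45.2% of the Iglc1, Iglc2 and Iglc3 UMIs. Neutrophils had a like mix, with 37.1% to 44.8% of Iglc2 and 40.2% to 48.3% of Iglc3. In plasmacytoid dendritic cells (pDCs), interferon-making cells gated by Siglech, Ccr9, Cox6a2, Klk1 and Cd300c, Iglc3 took 92.0%, 91.3%, 93.3% and 82.6%. The pDC values lay apart from those of every B stage, neutrophils, monocytes and macrophages, and erythroid cells, in which Iglc3 was at most 51.2%, except for cycling pre-B cells of TLR9-/- 2 with 84.2% of only 19 UMIs. In myeloid progenitors Iglc3 took 33.5% to 53.4%. Cells of no class had 42.3%, 73.0%, 48.8% and 46.2%. T cells, NK cells and basophils had at most 36 such UMIs in any library, too few to compare.

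In pDCs Iglc3 was at 441, 727, 656 and 308 CPM, and Iglc2 at 32.9, 52.6, 31.6 and 63.1 CPM. Iglc3 was detected in 250 of 553, 231 of 528, 330 of 623 and 118 of 327 pDCs, and in 229, 209, 308 and 112 of these cells no Iglc1 or Iglc2 UMI was seen. After thinning to 1000 UMIs per cell the share with Iglc3 was 30.4%, 26.2%, 43.2% and 22.5%, against 1.57% to 2.77% of neutrophils. In pDCs with no B lineage UMI, Iglc3 was at 449, 373, 731 and 274 CPM and Igkc at 230, 241, 158 and 45.6 CPM. Neutrophils with no B lineage UMI had Igkc at 5.65 to 7.94 CPM. Myeloid progenitors without one had 2.69, 1.19, 4.26 and 52.8 CPM, so in WT 2 they lay above the pDCs. At least 1 Igkc UMI was seen in 17.2%, 20.1%, 16.2% and 12.2% of all pDCs. The source of Igkc in pDCs was not tested. In the TLR9-/- 2 library a single pDC held 50.8% of the Iglc3 UMIs and a single pDC held 9319 of 9323 Iglv1 UMIs, and in WT 1 and WT 2 single pDCs held 2495 of 2791 and 425 of 508 Igkc UMIs. No doublet caller was run on these cells, and whether they were 2 cells under 1 barcode was not tested. Without its highest cell, Iglc3 in the TLR9-/- 2 library was at 362 CPM. The presence of Iglc3 without Iglc1 and Iglc2 was spread over many pDCs of all 4 libraries.

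**Figure D5:**
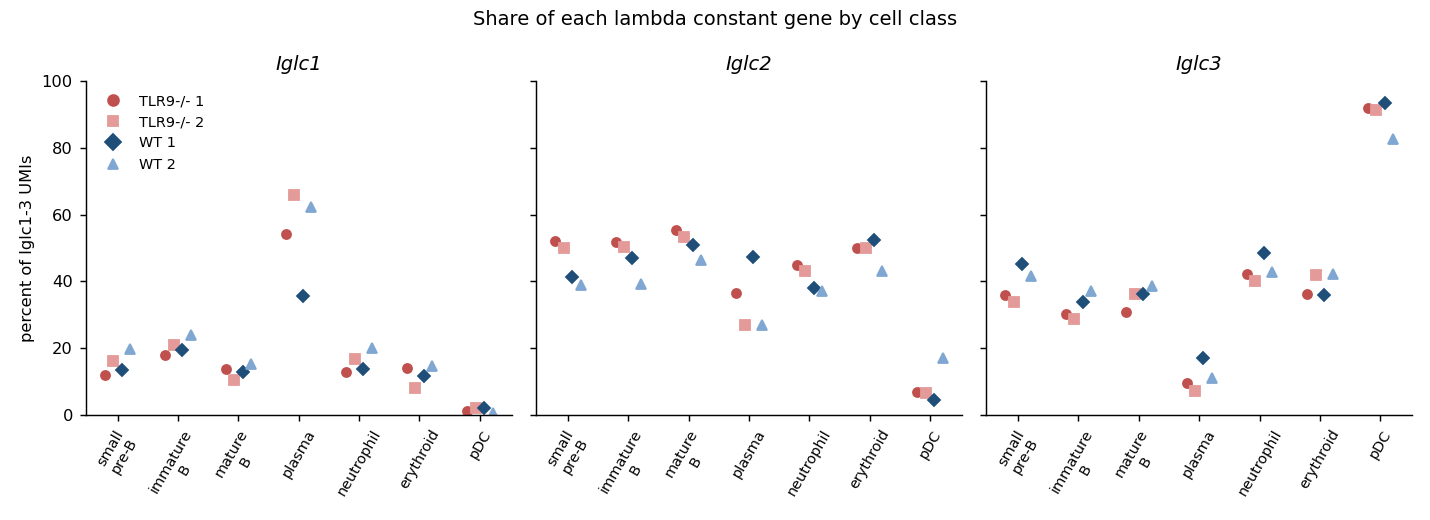
Percent of the UMIs of Iglc1, Iglc2 and Iglc3 that fell on each gene, by cell class, with 1 point per library. Iglc3 took 82.6% to 93.3% in pDCs, Iglc1 took 35.6% to 65.9% in plasma cells, and Iglc2 and Iglc3 shared most UMIs in B cells and neutrophils.

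Genes that act on light-chain joining and transcription were followed as a list of 34, with recombinase, repair factors, transcription factors and pre-B receptor signalling. From precursors to cycling pre-B cells, 14 of 33 tested rose and 5 fell (37% of all genes called). Syk, a kinase of the pre-B receptor, rose by 1.36 on the log2 scale, Spib by 1.48 and the chemokine receptor gene Cxcr4 by 0.9997, whereas the transcription factor gene Mef2c fell by 0.92. From cycling to small pre-B cells 17 rose and 0 fell (48% called). Ikzf3, encoding Aiolos, rose by 1.82, Rag1, a subunit of the recombinase, by 2.49, Pou2f2 by 1.48 and Spib by 1.16. From small pre-B to immature B cells 6 rose and 15 fell (26.2% called), with Xrcc6 at -2.75, Rag1 at -3.85, the interleukin-7 receptor gene Il7r at -3.01 and Cxcr4 at -1.33. From immature to mature B cells 5 rose and 1, Spib, fell (3.17% called), with Il7r at 1.45, Xrcc6 at 1.003, Rag2 at 1.96 and Cxcr4 at 0.51. The mature gate asks for only 1 UMI of Ighd or Fcer2a. It held 693, 1150, 1141 and 1372 cells, and 260, 795, 414 and 732 with the stricter stage gates. The small pre-B gate held 1019, 407, 1689 and 1006 cells, and 1427, 702, 2410 and 1530 with the stricter ones. Whether pre-B cells in the mature gate gave these rises was not tested. From mature B to plasma cells 2 rose and 20 fell (30% called), with Spib at -4.78, Id3 at -4.14, Bach2 at -3.44 and Syk at -1.99. The median log2 fold change of the list in these 5 steps was 0.21, 0.35, -0.30, -0.019 and -1.37, beside 0.0057, 0.11, 0.066, 0.0014 and -0.13 over all genes. Between the genotypes, 1 of 33 genes of the list tested was called in precursors (Rag1, -0.95), beside 0.692% of all genes. In neutrophils 2 of 34 were called (Bach2, -1.96, and Pax5, -1.70), beside 0.458% of all genes. These genes were all lower in TLR9-/-, and 0 were called in the other classes tested. The calls of the list were not followed under the alternatives. Pax5 is itself on the B lineage list, whose UMIs were lower in TLR9-/- neutrophils.

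Across the 24 sums of 6 stages and 4 libraries, the genes whose log2(CPM + 10) was most like that of Igkc were Edem1 (Pearson r = 0.951), Eaf2 (0.935), Fam46c (0.922), Dnajb9 (0.921) and Ly6c2 (0.921). Edem1 and Dnajb9 act on misfolded proteins in the endoplasmic reticulum, and Edem1 is in the plasma gate. Most like Iglc2 were Ctss (0.960), Cybb (0.957), Cmah (0.936), Atp6v0a1 (0.933) and Shisa5 (0.931). Ctss, a protease of antigen presentation, and Cybb, a subunit of the phagocyte oxidase, are on the monocyte marker list. The sums of 1 library share their cells and depth, and these values are a description.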

How the data were processed

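Libraries of bone marrow mononuclear cells, flushed from femur and tibia and taken from a Ficoll interface, were sequenced from the 5′ end with 150-base reads for 2 TLR9-/- and 2 WT mice. The authors aligned the reads to mm10 and deposited gene by cell tables of UMI counts, which the file headers give as made with Cell Ranger 3.0.1. The submitters' processing notes also name STAR and Seurat 2.3.4. Cell Ranger counts reads that map to 1 gene and gives each UMI to a single gene, so a variable and a constant gene compete for a molecule, and the effect of this was not tested.

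Cells with 200 to 10000 genes and at most 10% mitochondrial UMIs were kept, and the study's methods print this last limit in a form that was read as a fraction. No doublet caller was run. A class needed at least 3 UMIs on its marker list and 2 times those of any other of 11 lists. Plasma cells were gated first (at least 5 Jchain UMIs and 3 of 8 secretory genes, Siglech at 0), and B stages in the order precursor, mature, immature, cycling and small pre-B. UMI counts were summed per library and class and tested with edgeR 4.0.16 (quasi-likelihood, TMM scaling, filterByExpr) in R 4.3.3 over all genes, with Benjamini-Hochberg adjustment and a threshold of 0.05. Stage fits held the library as a term. DESeq2 1.42.0 was an alternative. Cell shares were tested over libraries by exact two-sided permutation. Wilson and zero-count limits (3 counts) cover counting error only. The edgeR step was tested on simulated counts. Genotype p-values measure the spread between 4 libraries, 1 mouse each. Those of the stage fits measure the spread left among the stage sums once the library term is taken out.

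The 7 genes, the marker lists, the pathway list and the rule for named genes (all members, the 4 pathway genes with the smallest adjusted p in a step, and the 5 genes most like Igkc and most like Iglc2) were chosen with earlier results of these data known. Sequences and coordinates are from GENCODE transcripts of GRCm38. Alternatives were other scaling, no filter, DESeq2, each library left out, gates on cells thinned to 1000 UMIs, stricter gates, no mitochondrial limit, no library term, a replicate block and other limits for a lambda cell.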

Additional observations from a re-analysis of the deposited data

How the results depend on the processing

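The 19 calls of light-chain genes between stages ranged from 16 to 22 under the alternatives, within 1.5 times. The 2 calls between genotypes within B stages became 1 with RLE scaling, 0 with gates on cells thinned to 1000 UMIs, 5 without a filter on low counts, 1 without the limit on mitochondrial UMIs and between 1 and 4 when a library was left out (1 without TLR9-/- 1, 4 without TLR9-/- 2). The cause was not tested. The study's methods describe 2 experiments, each with 1 WT and 1 TLR9-/- mouse. The library numbers are shared by the genotypes, but the labels do not say that a number marks an experiment, and only 2 pairs exist. Deviations of same-numbered libraries correlated at 0.0171 in plasma cells to 0.591 in erythroid cells, and with the replicate block there were 5 calls, with the Igkc difference in erythroid cells at -1.60 and past the threshold. Erythroid Igkc also passed with DESeq2 (-1.66) and without the filter (-1.64), ranged from -1.93 to -1.33 when a library was left out, and passed without WT 2. Monocyte and macrophage Igkc passed without the filter (-0.993). Neutrophil Igkc was not called with thinned gates (-0.0737) and changed sign in cells with no B lineage UMI (0.32).

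Signs turned for differences that had not passed the test in the settings reported. For Igkc these were precursors (-0.103 to 0.0148 over the left-out libraries) and, with thinned gates, small pre-B cells (0.69). For Iglc1 between genotypes in small pre-B cells the range was -0.37 to 0.348, and 0.28 with thinned gates. From precursors to cycling pre-B cells, Iglc1 ranged from -0.685 to 0.207 over the left-out libraries and was 0.0529 with RLE scaling, 0.0087 with DESeq2, 1.55 with thinned and 1.21 with stricter gates, Iglc2 was 0.998 with thinned and 1.02 with stricter gates, and Iglv1 ranged from -0.924 to 0.183 and was 0.31 and 0.51. With stricter gates Iglc2 (0.11) and Iglc3 (0.15) turned from immature to mature B cells, Iglc3 (-0.12) from mature B to plasma cells, and Iglv2 (-0.33) between genotypes in mature B cells. With thinned gates Iglc3 turned in precursors (0.0696) and small pre-B cells (0.19) between genotypes. Iglv3 between genotypes in mature B cells ranged from -0.234 to 1.11.

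The rise in the share of mostly lambda cells from small pre-B to mature B cells turned with a lambda limit of 80% (-0.447 points), with variable genes added (-2.86) and with variable genes alone (-5.30). The cause was not tested. Between genotypes the share turned in precursors with the 80% limit (0.896) and thinned gates (1.39), in cycling pre-B cells with at least 3 UMIs (0.0208) and over the left-out libraries (-1.85 to 0.997), and in small pre-B cells with variable genes alone (-1.21) and over the left-out libraries (-1.33 to 7.71). Igkc in monocytes and macrophages was at a mean of 6.09 CPM with the stricter class gate, and thinning left 1.20%, 1.71% and 10.5% of monocytes and macrophages, erythroid cells and pDCs with Igkc.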
